A study of Rattus norvegicus with 9 samples.

Results

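The citrate cycle enzymes described here are the products of 9 listed genes of the mitochondrial matrix: Cs, Idh3a, Idh3b, Idh3g, Ogdh, Sucla2, Suclg1, Fh and Mdh2. Members were chosen by gene symbol, and 8 of the 9 matched a row in a table of 32623 gene rows; Ogdh was not analysed here. All 8 passed the filter of a mean of at least 1 FPKM (fragments scaled by gene length and library depth) and were tested among 13886 genes. Poly(A) RNA from the femur was sequenced in 9 libraries, 3 from rats given the herb Desertliving Cistanche (treated), 3 from ovariectomized rats and 3 from rats labelled only as SD, the Sprague-Dawley strain (control). All are labelled with the genotype WT, and the labels give no strain for the other groups. The sample labels do not say that the treated rats were ovariectomized, but the title of the series places the herb in such rats, as a model of osteoporosis after menopause; no source used here gives the dose, the duration or the age. The labels do not say whether a library came from a separate animal, so p-values measure the spread between these libraries, which may be technical.

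The citrate cycle oxidizes the acetyl group of acetyl-CoA to carbon dioxide and hands the electrons to the respiratory chain. Citrate synthase starts the cycle by joining acetyl-CoA to oxaloacetate, and malate dehydrogenase closes it by regenerating oxaloacetate. Its enzymes are abundant in tissues rich in mitochondria such as skeletal muscle and heart. In the femur they are found in marrow cells, fat cells, osteoclasts, osteoblasts and attached muscle alike, so none of them marks a cell type.

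The libraries held 54992823 to 66531156 counts. The members had 2960 to 12107 counts in every library. Over all tested genes, sampling did not account for the difference between any library pair of a group (lowest chi-square per degree of freedom 79.6). This was not computed for single members. For members that spread little within a group, counting error may be a large part of the spread. The labelled tissue matched its markers: 9 of 9 bone genes with a row were counted in every library, with osteocalcin (Bglap) at a mean of 450.1 FPKM and the osteocyte gene Sost at 38.2 FPKM. Libraries differed in bone markers and in soft tissue. The summed level of the 9 bone genes ran from 777 to 1948 FPKM in treated rats. In ovariectomized rats it ran from 891 to 2406 FPKM, and in controls from 1424 to 2536 FPKM. The summed level of 15 skeletal muscle genes ran from 718 to 1457 FPKM in treated rats, from 951 to 4543 FPKM in ovariectomized rats and from 297 to 945 FPKM in controls, and all 15 were counted in every library. The highest sum belonged to ovariectomized replicate 3 and the lowest to control replicate 1. For 14 fat cell genes the sum ran from 1197 to 1987 FPKM in treated rats, from 1152 to 1678 FPKM in ovariectomized rats and from 459 to 1001 FPKM in controls. For 14 erythroid genes it ran from 2663 to 3316 FPKM in treated rats, from 3256 to 3765 FPKM in ovariectomized rats and from 3105 to 4843 FPKM in controls.

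The cycle enzymes were among the more abundant and steadier transcripts of the femur. Per length, Mdh2 was highest with a mean of 123.45 FPKM over the 9 libraries, followed by Cs at 93.4, Idh3g at 74.9, Idh3b at 46.5, Fh at 40.6, Suclg1 at 35.6, Sucla2 at 25.6 and Idh3a at 22.2 FPKM. Within each library this order held for each neighbouring pair in 9 of 9 libraries. Across libraries the FPKM ranges of the neighbours Cs and Idh3g, Idh3b and Fh, Fh and Suclg1, and Sucla2 and Idh3a overlapped. The levels lay at the 73.2nd to 96.0th percentile of tested genes, whose median was 10.2 FPKM. The coefficient of variation over the 9 libraries was 4.68% for Idh3g at the low end and 7.83% for Sucla2 at the high end, against a median of 13.2% for all tested genes. It was not compared with that of genes of like level, so steadiness beyond that of other abundant genes was not tested. Ovariectomized replicate 3 held the highest CPM (counts scaled to library size and adjusted by edgeR's TMM factors) of 7 of the 8 members, all but Suclg1. The share of all tested genes with their highest CPM in that library was not computed. Members that vary together are also not separate observations.

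Cs encodes citrate synthase, which forms citrate from acetyl-CoA and oxaloacetate and is widely used as a measure of mitochondrial content (chromosome 7, 2752680 to 2778963 in the deposited coordinates, with no genome build stated). It had 144, 134 and 145 CPM in treated rats, 153, 155 and 159 CPM in ovariectomized rats, and 133, 151 and 143 CPM in controls. All 3 ovariectomized libraries lay above all treated and all control libraries, while treated and control libraries overlapped.

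Idh3a, Idh3b and Idh3g encode the subunits of the NAD-dependent isocitrate dehydrogenase, which turns isocitrate into alpha-ketoglutarate. The alpha subunit carries the catalytic residues, and the beta and gamma subunits serve regulation. Idh3b (chromosome 3, 122808564 to 122813583) had 73.9, 72.1 and 74.7 CPM in treated rats, 74.7, 77.0 and 81.0 CPM in ovariectomized rats, and 67.3, 69.4 and 68.8 CPM in controls. The control libraries were the lowest in this gene without overlap, and the highest treated library lay just under the lowest ovariectomized one. Idh3a (chromosome 8, 59164572 to 59183908) had 54.3, 50.5 and 58.9 CPM in treated rats, 56.5, 54.3 and 65.0 CPM in ovariectomized rats, and 54.2, 59.7 and 61.3 CPM in controls. Idh3g (chromosome X, 156999826 to 157008733) had 106, 102 and 99.6 CPM in treated rats, 107, 104 and 114 CPM in ovariectomized rats, and 105, 111 and 99.7 CPM in controls. For Idh3a and Idh3g every pair of groups overlapped.

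Succinyl-CoA ligase makes succinate and a nucleotide triphosphate; Suclg1 encodes its shared alpha subunit and Sucla2 the beta subunit that forms ATP. Suclg1 (chromosome 4, 101180404 to 101210746) had 84.8, 80.1 and 90.7 CPM in treated rats, 84.1, 84.5 and 87.0 CPM in ovariectomized rats, and 78.0, 80.4 and 77.2 CPM in controls. Sucla2 (chromosome 15, 55461695 to 55516952) had 54.3, 57.1 and 60.9 CPM in treated rats, 52.8, 57.7 and 63.6 CPM in ovariectomized rats, and 49.4, 53.6 and 53.5 CPM in controls. Controls were thus on the low side of both genes. The groups without overlap were ovariectomized and control rats for Suclg1 and treated and control rats for Sucla2.

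Fh encodes fumarate hydratase, which adds water to fumarate to give malate (chromosome 13, 93651484 to 93677377). It had 72.4, 65.6 and 70.2 CPM in treated rats, 68.8, 65.7 and 72.4 CPM in ovariectomized rats, and 62.4, 65.2 and 63.2 CPM in controls, where the highest control lay just under the lowest library of each other group. Mdh2 encodes the mitochondrial malate dehydrogenase (chromosome 12, 23941448 to 23954431). It had 174, 145 and 159 CPM in treated rats, 176.2, 176.5 and 188 CPM in ovariectomized rats, and 170.4, 175 and 169.7 CPM in controls. Treated replicate 2 was the lowest of all, and treated libraries spread far more widely (SD 14.6 CPM) than ovariectomized (6.86 CPM) or control libraries (2.96 CPM).

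**Figure D1:**
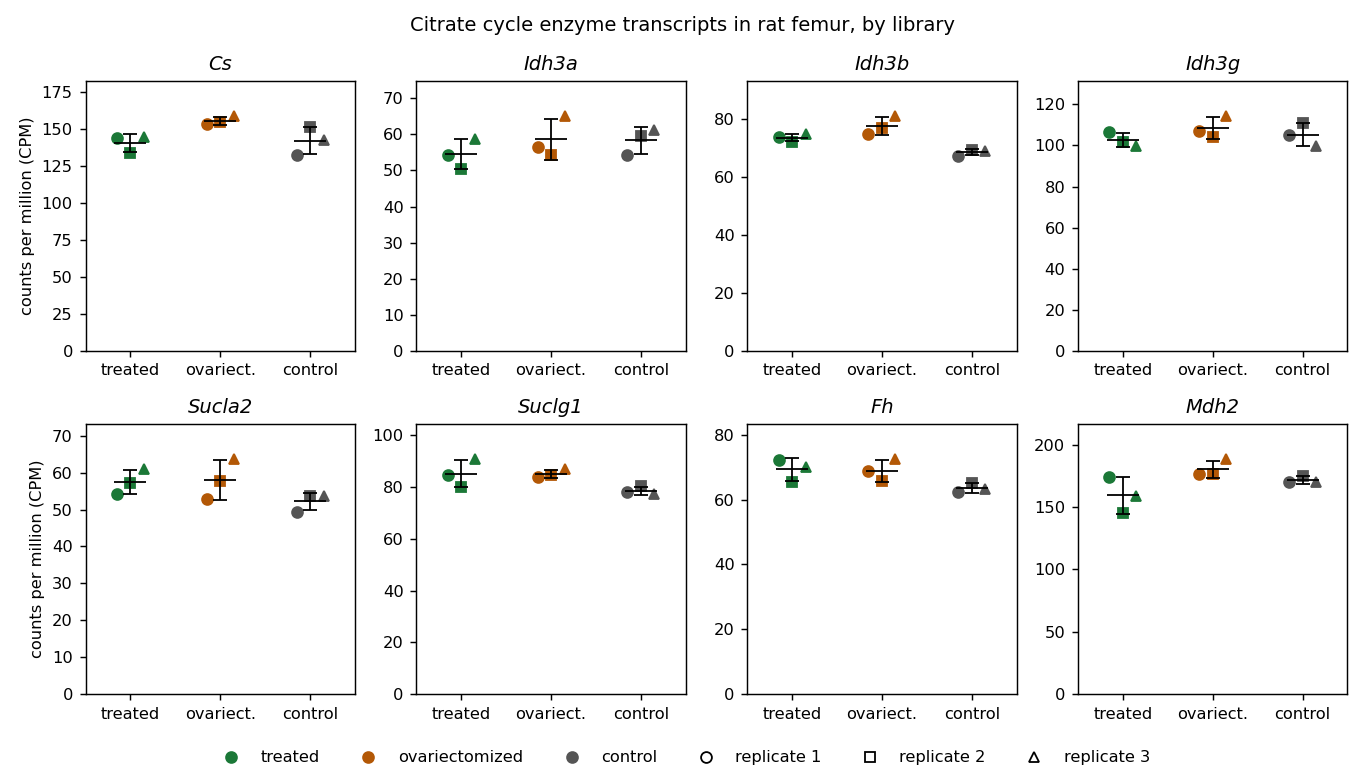
Each panel plots 1 citrate cycle gene in CPM on an axis from 0, with 1 point per library, the group mean as a long bar and the SD (n = 3) as whiskers; groups run treated, ovariectomized, control. The points of a gene lie close together in every panel, the lowest library having 77.1% of the highest for Mdh2 and 87.2% for Idh3g.

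The comparison of treated with ovariectomized rats asks what the herb changes. Estimates for 6 of the 8 members lay on the lower side in treated rats, by small amounts, with a median log2 fold change of -0.08, against -0.0042 for all 13886 genes. Mdh2 averaged 159 ± 14.6 CPM in treated rats and 180.3 ± 6.86 CPM in ovariectomized rats (SD, n = 3 each), a log2 fold change of -0.18 ± 0.075 (SE) and a difference of -11.6% with a 95% interval of -21.6% to -0.428%. Cs was at -0.14 ± 0.067, with an interval of -18.6% to 0.628%. Overlap of single genes between groups was read in CPM. Mdh2, Cs and Idh3b had lower treated libraries without overlap, 3 of 8 members. Of all genes 6.63% did so on the lower side and 5.75% on the higher side. This count depended on the scaling. In FPKM the treated and ovariectomized libraries of Mdh2 and Idh3b overlapped, and of the members only Cs stayed apart. The highest treated library of Mdh2 had 127.6 FPKM and the lowest ovariectomized one 127.0 FPKM. Suclg1 and Fh had nearly equal means in both groups, at log2 fold changes of 0.00018 ± 0.062 and 0.0079 ± 0.064. Their 95% intervals ran from -9.33% to 10.3% and from -9.18% to 11.3%. On the FPKM and TPM scales with limma Sucla2 was above 0, at 0.026 and 0.048, but there the median of all genes lay at 0.033 and 0.055, and relative to it 6 of 8 members were again lower.

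None of these differences passed. The quasi-likelihood test of edgeR called 0 of 8 members and 0 of all genes (0%) at an adjusted p under 0.05, and the smallest adjusted p of a member was 0.929, for Mdh2 and Cs. The unadjusted edgeR p was under 0.05 for 1 member, Mdh2, where 5.2% of all genes did so. DESeq2 called 0 members and 38 genes. Without ovariectomized replicate 3 the members' median was -0.031, with 3 of 8 higher, and without treated replicate 3 it was -0.074, with 0 of 8 higher.

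Ovariectomized and control rats were compared for the effect of removing the ovaries. All 8 members had higher estimates in ovariectomized rats, except that Idh3a turned to -0.0031 with no filter on low genes, -0.076 without ovariectomized replicate 3 and -0.048 without control replicate 1. For the members the median log2 fold change was 0.12, against -0.0037 for all genes, of which 48.7% were higher. Idh3b averaged 77.6 ± 3.18 CPM in ovariectomized rats and 68.5 ± 1.05 CPM in controls (SD, n = 3 each), a log2 fold change of 0.18 ± 0.055 (SE) and a difference of 13.2% with a 95% interval of 3.72% to 23.5%. Next came Sucla2 at 0.15 ± 0.084, Cs at 0.13 ± 0.067, and Suclg1 and Fh, both at 0.12. Mdh2, Idh3g and Idh3a were at 0.07, 0.041 and 0.0058. In 5 of 8 members, Cs, Idh3b, Suclg1, Fh and Mdh2, the ovariectomized libraries lay above the controls without overlap, where 5.02% of all genes did so on the higher side and 3.92% on the lower side.

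Here too edgeR called 0 of 8 members and 0 of all genes (0%), and the smallest adjusted p of a member was 0.892, for Idh3b. The unadjusted edgeR p was under 0.05 for 1 member, Idh3b, where 5.05% of all genes did so. DESeq2 called 0 members, with an adjusted p of 0.198 for Idh3b, and 59 genes. Without ovariectomized replicate 3, the library with the most muscle transcripts, the members' median was 0.082, and without control replicate 1, the library with the fewest, it was 0.089.

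Between treated and control rats 4 of 8 members lay on each side, with a median log2 fold change of 0.044, against -6.02e-06 for all genes. Sucla2 (0.14 ± 0.084 SE), Fh (0.13 ± 0.064), Suclg1 (0.12 ± 0.062) and Idh3b (0.10 ± 0.055) were on the higher side, and Mdh2 (-0.11 ± 0.075), Idh3a (-0.10 ± 0.094), Idh3g (-0.038 ± 0.066) and Cs (-0.015 ± 0.067) on the lower side. On log2(FPKM + 1) and log2(TPM + 1) with limma 6 of 8 and 8 of 8 were above 0, but the median of all genes moved to 0.078 and 0.17, with 68.7% and 81.5% of genes higher. Relative to that median 4 of 8 members lay on each side on both scales, and the members' median exceeded it by 0.05 and 0.055. In CPM, Fh, Idh3b and Sucla2, 3 of 8, had treated libraries above all controls. Of all genes 6.34% were apart on the higher side and 6.78% on the lower side. In FPKM the treated libraries of Suclg1 also lay above all controls, the lowest at 35.5 FPKM and the highest control at 33.5 FPKM. EdgeR called 0 of 8 members and 0 of all genes (0%), and 0 members were at an unadjusted p under 0.05, where 8.81% of all genes were. DESeq2 called 0 members and 153 genes. The 95% interval for Sucla2 ran from -3.82% to 25.7%. The median was 0.069 without treated replicate 2, 0.027 without treated replicate 3 and 0.071 without control replicate 2.

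**Figure D2:**
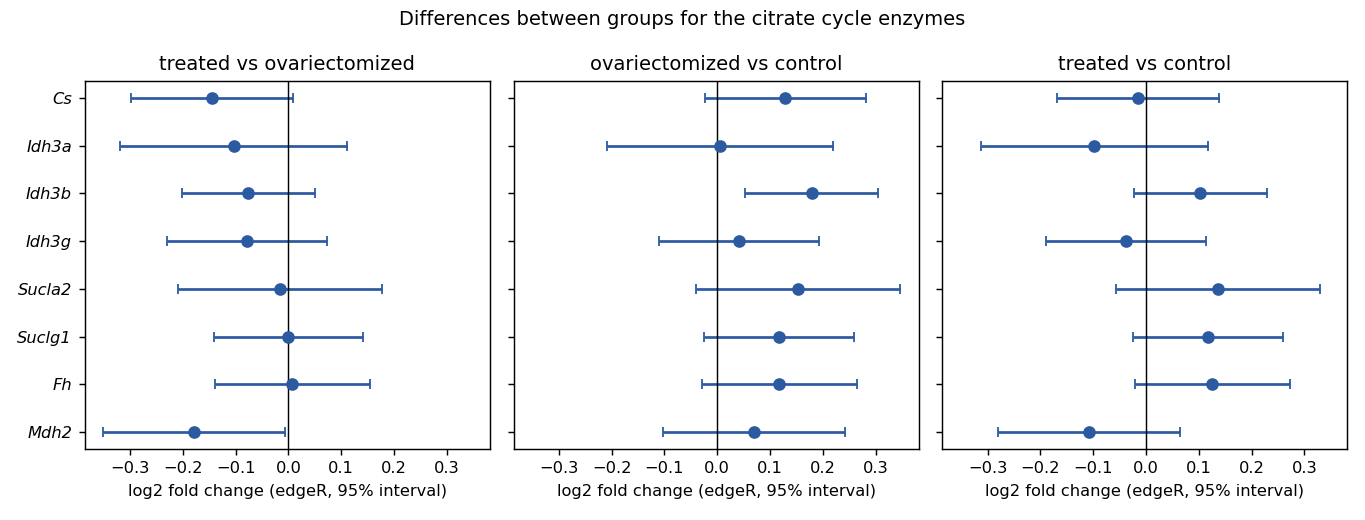
Points give the edgeR log2 fold change of each citrate cycle gene in 3 comparisons, with 95% intervals as bars and a line at 0. Intervals cross 0 for all but Mdh2 in treated against ovariectomized rats and Idh3b in ovariectomized against control rats, both before adjustment for the genes tested.

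These 3 comparisons share libraries: ovariectomized rats stand in the first and second, and treated rats and controls each stand in a pair of them as well. In CPM the ovariectomized mean was the highest for Mdh2, Cs, Idh3g and Idh3a, with treated means under those of controls. For Cs the treated and control means were close, at 140.9 and 142.3 CPM. In FPKM the treated means of Cs and Idh3g lay above those of controls. Idh3a had nearly equal ovariectomized and control means, at 58.6 and 58.4 CPM. For Suclg1, Sucla2 and Fh the control mean was the lowest, with treated means near those of ovariectomized rats. For Idh3b the treated mean lay between the others, and no pair of groups overlapped in CPM, though treated and ovariectomized libraries overlapped in FPKM.

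Ratios between transcripts within a library do not depend on how libraries are scaled, and they were read here for pairs that form or oppose each other in the cycle, chosen after the values were seen, so they are given as a description with no test. Of the 28 ratios between members, 7 did not overlap between treated and ovariectomized rats, 5 between ovariectomized and control rats and 14 between treated and control rats. These ratios share the same 8 genes, so they are not independent of each other. The share among ratios of other genes was not computed, so the counts cannot show anything particular to the cycle. The ratio of Idh3a to Idh3b in FPKM was 0.450, 0.428 and 0.482 in treated rats, 0.463, 0.432 and 0.492 in ovariectomized rats, and 0.493, 0.526 and 0.545 in controls. Less of the catalytic subunit transcript was thus present per beta subunit transcript in both other groups than in controls, without overlap, though the nearest ovariectomized and control libraries differ only in the last digit shown. The ratio of Idh3b to Idh3g averaged 0.641 ± 0.0256 in treated rats, 0.639 ± 0.0193 in ovariectomized rats and 0.582 ± 0.0306 in controls (SD, n = 3 each), again with controls apart. The ratio of Idh3a to Idh3g averaged 0.291 ± 0.0279 in treated rats, 0.295 ± 0.0139 in ovariectomized rats and 0.304 ± 0.0285 in controls, where all groups overlapped.

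Fh and Mdh2 catalyse successive steps. The ratio of Mdh2 to Fh was 2.90, 2.66 and 2.72 in treated rats, 3.08, 3.23 and 3.13 in ovariectomized rats, and 3.29, 3.23 and 3.23 in controls. Treated libraries were lowest in this ratio, without overlap with either other group. Mdh1 encodes the cytosolic malate dehydrogenase, the partner of Mdh2 in the malate-aspartate shuttle. The ratio of Mdh2 to Mdh1 was 0.948, 1.0035 and 0.795 in treated rats, 0.944, 0.897 and 0.994 in ovariectomized rats, and 1.16, 1.19 and 1.26 in controls, so the mitochondrial form outnumbered the cytosolic one per length in all controls. Suclg2 encodes the beta subunit of succinyl-CoA ligase that forms GTP. The ratio of Sucla2 to Suclg2 averaged 0.957 ± 0.128 in treated rats, 1.01 ± 0.13 in ovariectomized rats and 0.971 ± 0.0285 in controls, with overlap throughout.

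**Figure D3:**
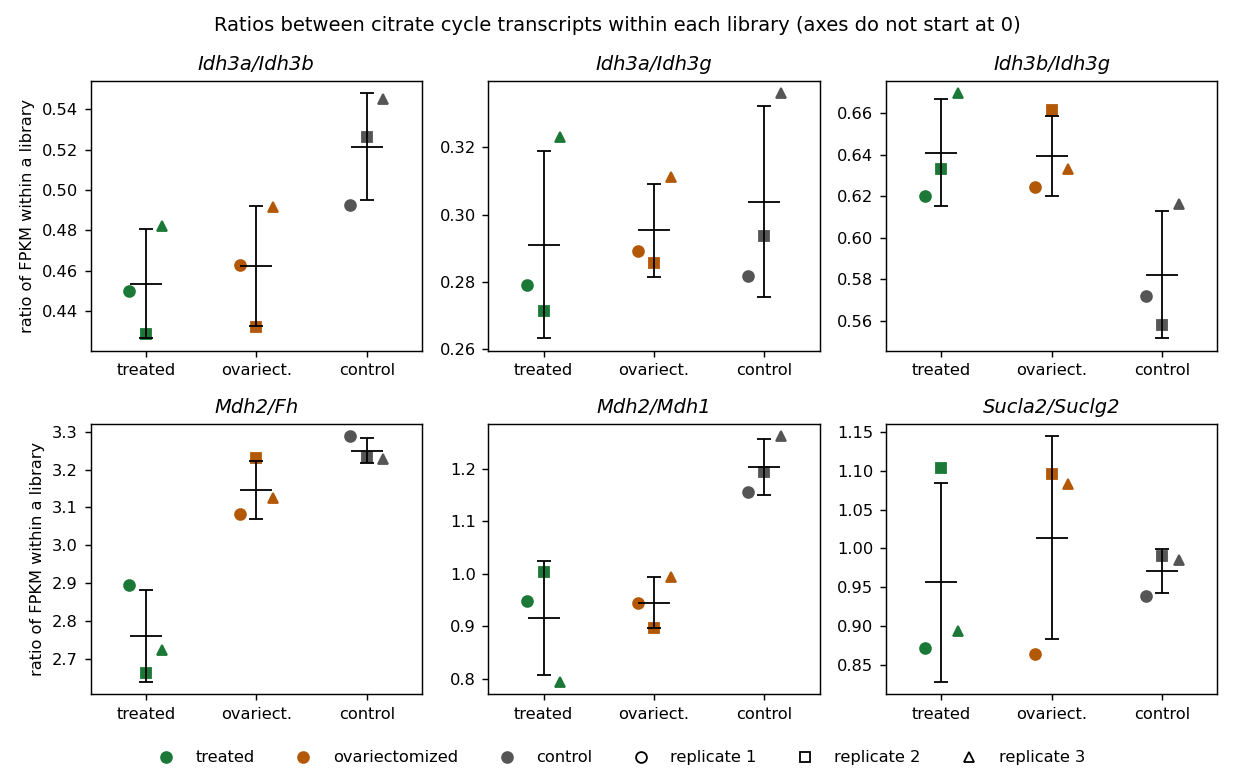
Each panel plots the FPKM ratio of a pair of transcripts within each library, with the group mean and SD (n = 3); axes do not start at 0. Controls stand apart in Idh3a/Idh3b, Idh3b/Idh3g and Mdh2/Mdh1, and treated rats stand apart in Mdh2/Fh.

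Members were set against marker scores of skeletal muscle, erythroid and fat cells (the mean log2 CPM of a list, each gene relative to its mean over the 9 libraries), 24 relations in all over 9 libraries. Idh3b followed the muscle score most closely, with Pearson's r = 0.91 (2-sided exact permutation p = 0.00059, Benjamini-Hochberg adjusted p = 0.0142) and Spearman's rho = 0.88 (exact permutation p = 0.00308, adjusted p = 0.0646). This r was 0.75 without ovariectomized replicate 3 and control replicate 1, the libraries farthest from the median score, and 0.92 after each group was centred on its own mean. All permutations ignored the groups, so their p-values do not separate differences between groups from differences within them. No p was computed for a centred r. Sucla2 had r = 0.86 (exact permutation p = 0.00422, adjusted p = 0.0507) and rho = 0.75 (exact permutation p = 0.0255, adjusted p = 0.122), and Cs r = 0.80 (exact permutation p = 0.00837, adjusted p = 0.0576) and rho = 0.82 (exact permutation p = 0.0108, adjusted p = 0.0646), but without the same libraries r was 0.50 and 0.53. For all 8 members r with muscle lay above 0, down to 0.33 for Idh3g. Without those libraries it was -0.01 for Idh3a, -0.23 for Idh3g and 0.18 for Fh, so Pearson's r of these genes leaned on them. After centring each group on its own mean, r was 0.80, 0.17 and 0.50 for the same genes. Their Spearman's rho over the 9 libraries was 0.50, 0.15 and 0.82.

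Of the 24 relations, 1 passed after adjustment by Pearson's r and 0 by Spearman's rho; 6 had an unadjusted Pearson p under 0.05. With the fat cell score Suclg1 had the highest r, 0.77 (exact permutation p = 0.0096, adjusted p = 0.0576), with rho = 0.73 (exact permutation p = 0.0311, adjusted p = 0.124); r was 0.86 without the 2 libraries farthest from the median fat cell score and 0.46 after each group was centred on its own mean. With the muscle score Suclg1 had r = 0.68 (exact permutation p = 0.0423, adjusted p = 0.169), and 0.50 after centring each group. Its rho with muscle was 0.82 (exact permutation p = 0.0108, adjusted p = 0.0646), so its pattern was not particular to the fat cell score. Relations with the erythroid score ran from r = -0.41 for Fh to 0.48 for Idh3g, and none passed. The part of muscle, fat or bone in the differences between groups was not tested. In bulk samples, fewer cells of a type and less RNA per cell cannot be told apart.

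**Figure D4:**
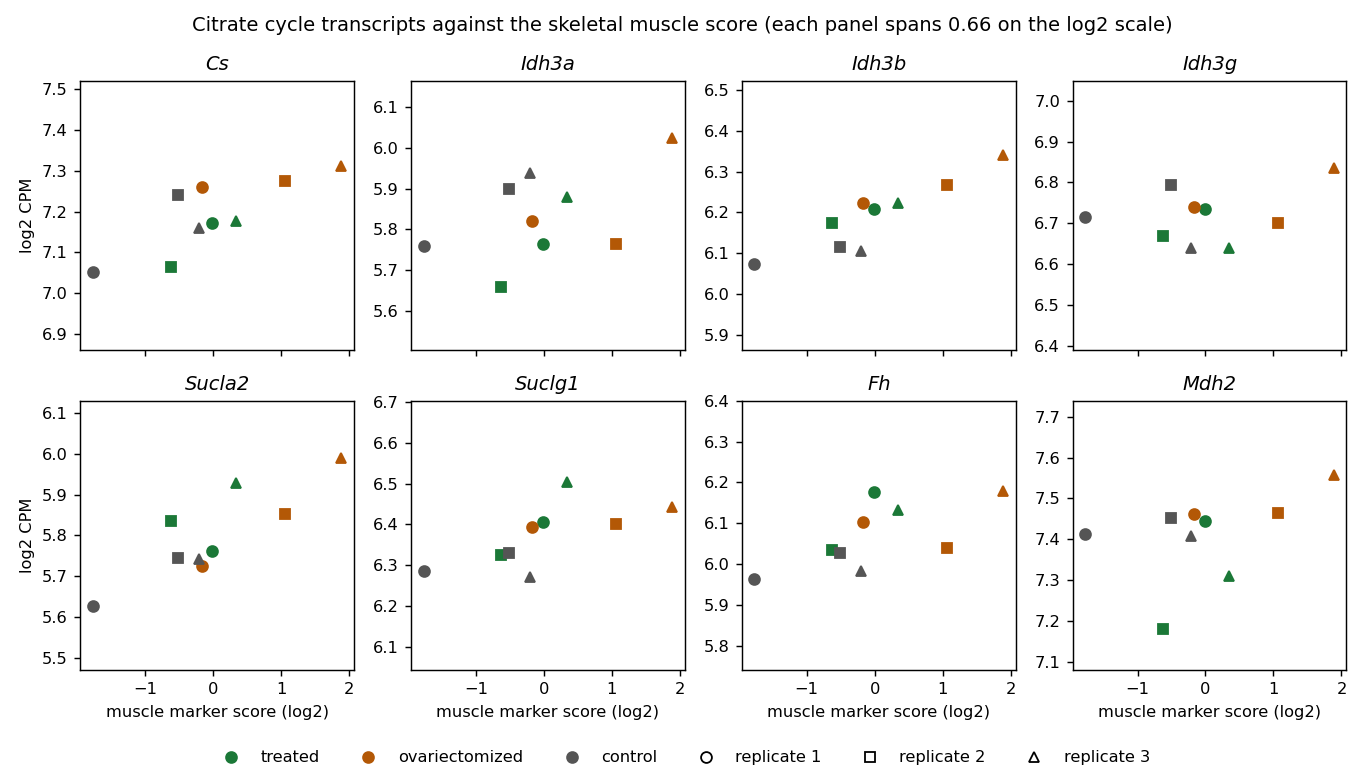
The log2 CPM of each citrate cycle gene is plotted against the skeletal muscle score of the same library, 1 point per library, with an equal span on every vertical axis. Idh3b climbs with the score across libraries (r = 0.91), whereas Idh3g (r = 0.33) and Mdh2 (r = 0.46) do so loosely.

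The other enzymes of the cycle gave similar values. Of 10 listed genes 9 were tested; Ogdhl, at 0.184 FPKM, was not. In ovariectomized against control rats all 9 had higher estimates (median log2 fold change 0.12), and 4 of the 9 were higher without overlap, where 5.02% of all genes were. In treated against ovariectomized rats 8 of 9 were lower (median -0.06), and 3 were lower without overlap, where 6.63% of all genes were. In treated against control rats 6 of 9 were higher (median 0.057). On log2(TPM + 1) with limma, relative to the median of all genes, the same numbers of the 9 lay above it. Idh2, the NADP-dependent isocitrate dehydrogenase of mitochondria, had a log2 fold change of -0.28 ± 0.13 (SE) in treated against ovariectomized rats, with an edgeR adjusted p of 0.929. Its ovariectomized libraries ran from 138 to 185 CPM around a mean of 154 CPM. Sdhb and Sdhc, subunits of succinate dehydrogenase, were at 0.22 ± 0.091 and 0.19 ± 0.076 in ovariectomized against control rats. No gene of this list passed in edgeR in any comparison. An unadjusted p under 0.05 was held by 1, 2 and 0 of the 9 in treated against ovariectomized, ovariectomized against control and treated against control rats, where 5.2%, 5.05% and 8.81% of all genes held one.

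The lists of pyruvate entry and of shuttles and side reactions had medians near those of the members, at 0.12 and 0.15 in ovariectomized against control rats, -0.046 and -0.027 in treated against ovariectomized rats, and 0.075 and 0.081 in treated against control rats. The genes with the smallest p in each list are named next. Pc encodes pyruvate carboxylase, which supplies oxaloacetate to the cycle. It averaged 114 ± 21.9 CPM in treated rats, 137 ± 37.6 CPM in ovariectomized rats and 70.2 ± 19.1 CPM in controls, a log2 fold change of 0.96 ± 0.26 (SE) for ovariectomized against control rats with an edgeR adjusted p of 0.892 and a DESeq2 adjusted p of 0.0552. Pdk2 and Pdk4, kinases that switch off pyruvate dehydrogenase, were at 0.69 ± 0.20 and 1.61 ± 0.59 in the same comparison, and Mpc1, a subunit of the mitochondrial pyruvate carrier, was at 0.29 ± 0.11. Of the 16 tested genes of pyruvate entry 14 were higher in ovariectomized than in control rats, 6 were higher in treated than in ovariectomized rats and 12 were higher in treated than in control rats, with 4, 0 and 2 at an unadjusted p under 0.05. Of the 19 tested genes of shuttles and side reactions 14, 7 and 13 were higher in these comparisons, with 5, 3 and 3 at an unadjusted p under 0.05. In the same order 5.05%, 5.2% and 8.81% of all genes had an unadjusted edgeR p under 0.05. On log2(TPM + 1) with limma 14, 6 and 13 of the 16 and 14, 8 and 13 of the 19 lay above the median of all genes.

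Pck1, the cytosolic phosphoenolpyruvate carboxykinase, which also serves glycerol synthesis in fat cells, averaged 124 ± 40.3 CPM in treated rats, 150.4 ± 34.0 CPM in ovariectomized rats and 45.7 ± 30.6 CPM in controls. Got1 and Got2, the aspartate aminotransferases of cytosol and mitochondria, had lower values in treated than ovariectomized rats without overlap, at -0.48 ± 0.14 and -0.16 ± 0.069, and higher in ovariectomized than in control rats without overlap, at 0.46 ± 0.14 and 0.22 ± 0.069. The ovariectomized libraries of Got1 ran from 41.8 to 61.3 CPM around a mean of 48.6 CPM. Mdh1 was at 0.42 ± 0.11 in ovariectomized against control rats. No gene of these lists passed in edgeR in any comparison. The fat cell and muscle sums given above were higher in ovariectomized than in control rats as well.

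Among regulators of mitochondrial genes, Esrra, a nuclear receptor that activates genes of oxidative metabolism, averaged 33.1 ± 1.74 CPM in treated rats, 31.7 ± 1.90 CPM in ovariectomized rats and 26.1 ± 1.77 CPM in controls. Controls were the lowest without overlap. Its log2 fold change was 0.34 ± 0.083 (SE) for treated against control rats, with an edgeR adjusted p of 0.469 and a DESeq2 adjusted p of 0.0335, and 0.28 ± 0.083 for ovariectomized against control rats. The coactivator gene Ppargc1b was at -0.41 ± 0.19 in treated against ovariectomized rats, Sirt5, a mitochondrial deacylase, at -0.12 ± 0.11 and Tfb2m, a mitochondrial transcription factor, at -0.15 ± 0.12. Sirt5 averaged 16.9, 18.3 and 16.2 CPM in treated, ovariectomized and control rats, and Tfb2m 14.1, 15.7 and 16.1 CPM. The smallest unadjusted edgeR p of these genes in any comparison was 0.125 for Sirt5 and 0.145 for Tfb2m. Ppargc1a, at 0.252 FPKM, fell below the filter. Of the 9 tested regulators 4 were higher in treated than in ovariectomized rats, 4 in ovariectomized than in control rats and 3 in treated than in control rats, and the same numbers lay above the median of all genes on log2(TPM + 1) with limma. Unadjusted edgeR p values under 0.05 were reached by 0, 1 and 1 of them, in each case Esrra, where 5.2%, 5.05% and 8.81% of all genes reached one.

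**Figure D5:**
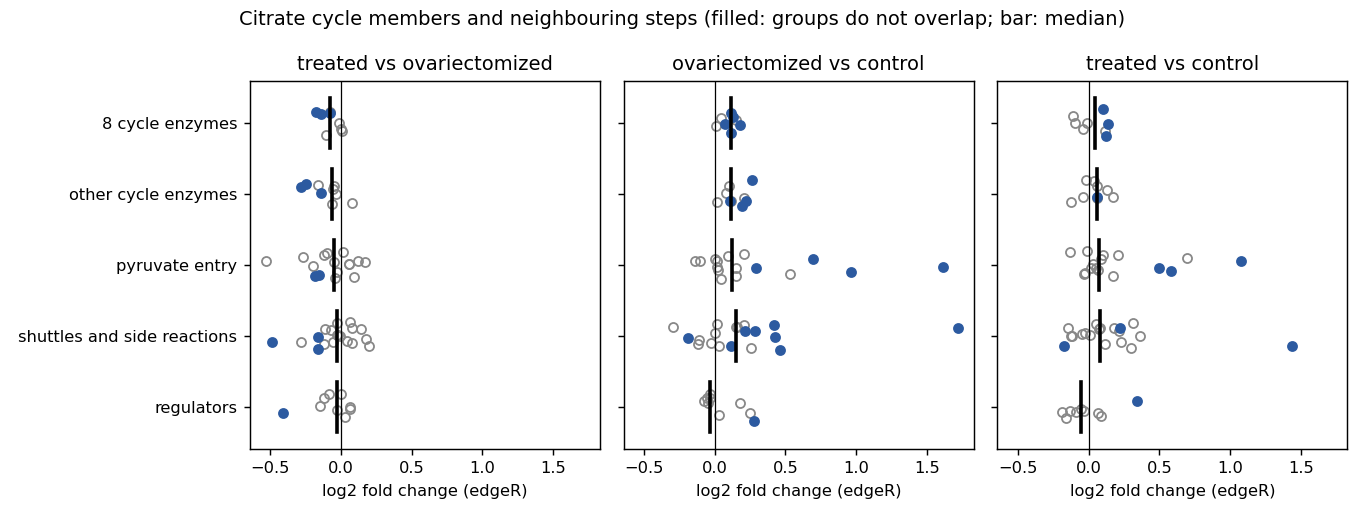
Each point is the edgeR log2 fold change of 1 gene; rows are the 8 cycle enzymes and 4 lists of neighbouring genes, filled points mark genes whose groups do not overlap, and black bars are medians. The cycle enzymes and other cycle enzymes cluster tightly near 0, while pyruvate entry and side reaction genes reach 1.61 (Pdk4) and 1.72 (Pck1) in ovariectomized against control rats. The Pdk4 value leaned on the highest ovariectomized library.

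Members varied together only in part. Across the 9 libraries, which share groups and tissue makeup, all 28 pairs had a positive Pearson's r of log2 CPM, with a median of 0.50, a range of 0.023 to 0.84, 8 pairs above 0.7 and 8 below 0.3. The closest pair was Suclg1 and Fh (r = 0.84), followed by Idh3b and Sucla2 (r = 0.82); Cs and Mdh2 were nearest to each other (r = 0.74), and Mdh2 was also nearest to Idh3a (r = 0.62) and Idh3g (r = 0.71). Outside the members, the genes whose pattern was most like the members' mean over the 9 libraries were Acacb (r = 0.97), Ndrg2 (r = 0.96), Myom1 (r = 0.96) and Usp13 (r = 0.96).

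The 250 bases before the transcription start are shown for Suclg1 and Fh, the closest pair, and for Cs and Mdh2, which were nearest to each other. They come from RefSeq (GRCr8), where 7 of the 8 members matched, all but Idh3a. Suclg1 lies at chr4:106866079-106866328 on the plus strand, Fh at chr13:90082451-90082700 on the minus strand, Cs at chr7:1348139-1348388 on the plus strand and Mdh2 at chr12:26543842-26544091 on the minus strand. Each runs 5′ to 3′ on the gene's strand, and capitals mark matches to any of 5 motifs on either strand.
Suclg1: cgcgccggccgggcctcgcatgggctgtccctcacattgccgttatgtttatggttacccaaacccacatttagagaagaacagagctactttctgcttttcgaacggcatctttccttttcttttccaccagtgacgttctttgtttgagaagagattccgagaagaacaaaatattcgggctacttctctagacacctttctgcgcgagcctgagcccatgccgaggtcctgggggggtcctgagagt
Fh: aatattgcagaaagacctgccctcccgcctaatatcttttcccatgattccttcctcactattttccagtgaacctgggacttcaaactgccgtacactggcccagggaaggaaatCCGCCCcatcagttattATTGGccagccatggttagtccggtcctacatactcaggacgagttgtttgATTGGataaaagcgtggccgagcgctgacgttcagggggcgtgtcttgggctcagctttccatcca
Cs: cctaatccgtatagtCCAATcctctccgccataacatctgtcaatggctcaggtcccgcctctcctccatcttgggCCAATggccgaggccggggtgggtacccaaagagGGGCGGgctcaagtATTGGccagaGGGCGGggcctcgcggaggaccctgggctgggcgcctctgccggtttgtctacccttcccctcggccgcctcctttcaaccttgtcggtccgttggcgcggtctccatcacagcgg
Mdh2: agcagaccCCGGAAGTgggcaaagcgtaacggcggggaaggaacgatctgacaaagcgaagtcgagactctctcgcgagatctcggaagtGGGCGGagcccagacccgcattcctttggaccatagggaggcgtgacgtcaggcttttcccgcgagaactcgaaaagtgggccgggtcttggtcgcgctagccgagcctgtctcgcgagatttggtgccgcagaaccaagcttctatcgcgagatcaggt

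The motifs searched were CGCATGCG for NRF1, TCAAGGTCA for the oestrogen-related receptors, CCGGAAGT for the ETS factor GABP, CCAAT for NF-Y and GGGCGG for Sp1; the last pair was added after the sequences were seen, and none of these words overlaps another in the 7 promoters. Cs held 3 CCAAT words, 235, 174 and 126 bases before the start, and 2 GGGCGG words. Fh held 2 CCAAT words, at 117 and 66 bases, and 1 GGGCGG word. Mdh2 was the only one of the 7 with CCGGAAGT, at 242 bases, and also held GGGCGG at 160 bases. Suclg1 held none of them. Over the 7 promoters CCAAT was present in 4 and GGGCGG in 4, against 34.0% and 30.5% of 33469 promoters of the same length. CCGGAAGT was present in 3.1% of all promoters, and CGCATGCG and TCAAGGTCA, in none of the 7, were present in 1.47% and 0.388%. A match describes the letters in this window and not a bound site.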

How the data were processed

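Count and FPKM values per gene were deposited in 1 table with Ensembl rat gene identifiers, per the file headers. The submitters' processing notes name fastp, HISAT2 and StringTie, without versions. The authors had scaled the FPKM values by gene length and depth; a count of 0 is listed at 0.0001 FPKM. No source says how the deposited count values were produced; they were taken as unscaled read counts. Where a symbol had several rows, the row of highest mean FPKM was used. Counts were tested with edgeR 4.0.16 (TMM, 1 quasi-likelihood fit over 9 libraries, Benjamini-Hochberg over the 13886 genes that averaged 1 FPKM or more, threshold 0.05; R 4.3.3). The common biological coefficient of variation was 0.262. Simulated data for treated against control rats, with 13886 genes, gave back 60% of genes changed by a fold of 2 and 88% of those changed by a fold of 4, with 5 false calls. Changes as small as the differences of the members were not simulated, so these rates do not apply to them. DESeq2 1.42.0 and limma 3.58.1 served as alternatives, as did another scaling, other filters, only the 2 groups compared and each library left out. Exact permutations ran over all orders of 9 libraries. Genes outside the members were named by smallest p within a list (up to 4) or by highest r; 2 genes chosen this way are not reported here. The members and lists were chosen with earlier results of these data known.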

Additional observations from a re-analysis of the deposited data

How the results depend on the processing

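No citrate cycle gene passed in any comparison under any of the 18 alternatives run (smallest adjusted p 0.198, Idh3b in DESeq2 for ovariectomized against control rats). Of 432 values of single members, 407 kept their direction and 25 turned. The turns on the FPKM and TPM scales came with a shift of all genes; for the others the cause was not tested. Genes called, in the order treated against ovariectomized, ovariectomized against control and treated against control, were 38, 59 and 153 with DESeq2, 1, 2 and 1 with only the 2 groups compared, and 0 to 2, 0 to 4 and 0 to 3 with each library left out. On log2(TPM + 1) the medians of the members were -0.013, 0.23 and 0.22, and all 8 were higher in treated than in control rats, while the median of all genes itself moved to 0.055 in treated against ovariectomized, 0.10 (78.6% of genes higher) in ovariectomized against control and 0.17 (81.5% higher) in treated against control rats. Relative to that median the members lay at -0.068, 0.12 and 0.055, against -0.073, 0.12 and 0.044 in the edgeR fit with TMM factors, with 2, 8 and 4 of 8 above it in both. On log2(FPKM + 1) and log2(FPKM + 0.1) the median for treated against control rats was 0.128 and 0.131. In treated against ovariectomized rats Sucla2 turned to 0.026, 0.027 and 0.048 on log2(FPKM + 1), log2(FPKM + 0.1) and log2(TPM + 1), where Cs in treated against control rats turned to 0.072, 0.073 and 0.16 and Idh3g to 0.049, 0.049 and 0.14. Idh3a and Mdh2 in treated against control rats turned to 0.077 and 0.066 on log2(TPM + 1), and Idh3a in ovariectomized against control rats to -0.0031 with no filter. With each library left out, values in treated against ovariectomized rats ran from -0.080 to 0.054 for Sucla2, -0.047 to 0.043 for Suclg1 and -0.024 to 0.047 for Fh, with 0 to 3 members higher. Idh3a ran from -0.076 to 0.052 in ovariectomized against control rats, and in treated against control rats Cs ran from -0.059 to 0.031 and Idh3g from -0.075 to 0.0013. Deviations of same-numbered libraries from their group means had r from -0.13 to 0.18, against -0.17 to 0.14 for differently numbered ones. In ovariectomized against control rats the same-numbered r were 0.18, 0.092 and 0.080. With 3 libraries per group this cannot decide whether the numbers pair them. A replicate block called 0 genes in each comparison, put Suclg1 at -0.00062 in treated against ovariectomized rats and left 1 member higher there.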
